A study of Mus musculus with 27 samples.

Results

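The 10 genes described here encode parts of the bone morphogenetic protein (BMP) pathway and its feedback loop. They are the ligands *Bmp2*, *Bmp4* and *Bmp7*, the receptor *Bmpr1a*, the signal transducer *Smad1*, the inhibitory Smads *Smad6* and *Smad7*, the decoy receptor *Bambi*, and the secreted antagonists *Nog* and *Chrd*. They were taken by symbol from the annotation column of 3 deposited RNA-seq tables, and all 10 were found among the 23494 genes listed in every table (27080 genes were listed in at least 1). The cells were J1 mESCs, a mouse embryonic stem cell (ESC) line grown without feeders in serum with 1000 U/ml of leukemia inhibitory factor (LIF). They carried a lentiviral non-targeting control shRNA (shNT, 3 libraries) or 1 of 2 shRNAs against *Gas41*, a YEATS domain subunit of complexes that place the histone variant H2A.Z (shGas41-1, 3 libraries; shGas41-2, 2 libraries). Infected cells were selected with puromycin, and knockdown (KD) samples were harvested 8 days after infection. Cells with the control vector were also sampled undifferentiated with LIF (EB day 0, 2 libraries) and as embryoid bodies grown from 1000 cells per well without LIF (EB day 6, 2 libraries). Every library therefore carried an integrated vector, and no library from uninfected cells was compared. The study asked which genes KD of *Gas41* releases in mESCs and set them beside those that change as EBs form.

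BMP ligands bind a complex of type I and type II receptors, which phosphorylates Smad1 and its relatives, and these enter the nucleus with Smad4 to switch on genes such as the *Id* family. Smad6, Smad7 and Bambi dampen the signal inside or at the surface of the cell and are themselves induced by it, while Noggin and Chordin trap ligand outside the cell. In mESCs, BMP signalling acts beside LIF to hold back neural differentiation, and in the embryo it drives the formation of mesoderm and extraembryonic tissue.

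RefSeq promoters (GRCm38.p6) matched 5 of the 10 genes: *Bmp4*, *Bmpr1a*, *Smad1*, *Smad6* and *Chrd*. The 250 bases before the start of *Smad6* (chr9:64022060-64022309, minus strand) and of *Bmp4* (chr14:46390670-46390919, minus strand) are shown 5′ to 3′ because these genes moved in opposite directions with shGas41-1, with capitals marking GGGCGG, a GC box that Sp and Klf factors bind, on either strand.

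*Smad6* promoter: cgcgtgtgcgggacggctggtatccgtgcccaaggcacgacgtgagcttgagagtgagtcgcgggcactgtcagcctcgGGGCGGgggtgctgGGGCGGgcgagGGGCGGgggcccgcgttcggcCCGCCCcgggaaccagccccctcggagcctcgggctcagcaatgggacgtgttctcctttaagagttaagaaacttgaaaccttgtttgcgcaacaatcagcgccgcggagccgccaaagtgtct

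*Bmp4* promoter: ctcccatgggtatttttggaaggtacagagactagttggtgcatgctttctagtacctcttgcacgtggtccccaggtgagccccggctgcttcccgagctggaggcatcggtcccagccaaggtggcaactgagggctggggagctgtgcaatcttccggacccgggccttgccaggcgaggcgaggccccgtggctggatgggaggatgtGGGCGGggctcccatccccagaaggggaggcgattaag

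The *Smad6* window held 4 GC boxes, starting 171, 157, 146 and 125 bases before the start, and the *Bmp4* window held 1, 38 bases before it. *Bmpr1a* and *Chrd* also held 4 each and *Smad1* held 1, and 32.7% of the 32851 RefSeq promoter windows of this length held at least 1. GGCGCC, a GC-rich letter run that BMP Smads can bind, occurred once each in *Bmpr1a* and *Chrd* and in 9.59% of all windows. CAGAC, the short Smad element (both strands searched), occurred in none of the 5 windows and in 42.2% of all. CpG dinucleotides numbered 11 in *Bmp4*, 25 in *Smad1*, 27 in *Smad6*, 28 in *Chrd* and 36 in *Bmpr1a*, against a median of 6 and quartiles of 2 and 16 over all windows, so that *Bmp4* lay between the quartiles and the other 4 above them. These matches describe the letters in the windows only.

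On mm9, the ligands lie at chr14:47003195-47010344 (*Bmp4*, ENSMUSG00000021835), chr2:133377895-133388621 (*Bmp2*, ENSMUSG00000027358) and chr2:172693513-172765822 (*Bmp7*, ENSMUSG00000008999). *Bmpr1a* (ENSMUSG00000021796) lies at chr14:35223920-35316527, *Smad1* (ENSMUSG00000031681) at chr8:81862294-81923417 and *Smad6* (ENSMUSG00000036867) at chr9:63800953-63869866. *Smad7* (ENSMUSG00000025880) lies at chr18:75527183-75555589 and *Bambi* (ENSMUSG00000024232) at chr18:3507955-3516402. *Nog* (ENSMUSG00000048616), which has a single exon, lies at chr11:89161952-89163873 and *Chrd* (ENSMUSG00000006958) at chr16:20733200-20742457.

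The 12 libraries held between 59224537 and 81524773 counts, and levels are given in CPM, the count of a gene relative to the total of its library, on which 3 counts were worth 0.0368 to 0.0507. *Gas41*, listed as *Yeats4*, was left at 7.93% of shNT with shGas41-1 and 15.3% with shGas41-2. Levels of the pluripotency markers *Pou5f1*, *Nanog*, *Sox2*, *Zfp42*, *Esrrb* and *Klf4* summed to between 4368.2 and 5244.6 CPM in the libraries of shNT, both KDs and EB day 0, and to 1522.1 and 1191.0 CPM at EB day 6. Single markers within the sum differed in direction. With shGas41-1 mean levels were lower than in shNT for *Esrrb* (394.6 against 847.1 CPM) and *Klf4* (114.5 against 263.3 CPM) and higher for *Zfp42* (1754.0 against 1377.4 CPM). shGas41-1 replicate 3 stood apart from its group, its counts giving chi-square values per degree of freedom of 144.2 and 236.0 against the other 2 libraries, where other replicate pairs gave between 29.2 and 81.3. All replicate pairs thus differed by more than counting error. The methods speak of biological repeats in general, but the labels do not tie these libraries to separate cultures, so p-values measure the spread between libraries, which may in part be technical. In bulk RNA, fewer cells of a type and less RNA per cell cannot be told apart.

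Among the 10 genes, the ligand *Bmp4* and the inhibitor *Smad7* had the highest levels in undifferentiated shNT cells. Levels per kb of exon averaged 22.7 CPM per kb for *Bmp4*, 17.5 for *Smad7*, 10.3 for *Bmpr1a*, 4.16 for *Smad1*, 2.55 for *Bambi*, 1.11 for *Smad6*, 0.857 for *Chrd*, 0.501 for *Bmp7*, 0.0841 for *Nog* and 0.0243 for *Bmp2*. In that order, *Bmp4* and *Smad7* overlapped over the 3 libraries, as did *Smad6* with *Chrd* and *Chrd* with *Bmp7*, while the other neighbours did not overlap. At EB day 6 the order had *Bmpr1a* (22.9 CPM per kb) and *Smad1* (19.4) first, with overlapping libraries. They were followed by *Smad7* (5.62), *Bambi* (4.25), *Smad6* (3.02) and *Bmp7* (2.86), each overlapping the next, and by *Bmp4* (1.38), *Bmp2* (1.03) and *Chrd* (0.913), which overlapped likewise, and *Nog* was lowest at 0.274. Of the 10 genes, the receptor and the transducer thus stood highest in EBs, where *Bmp4* and *Smad7* had led in mESCs.

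**Figure D1:**
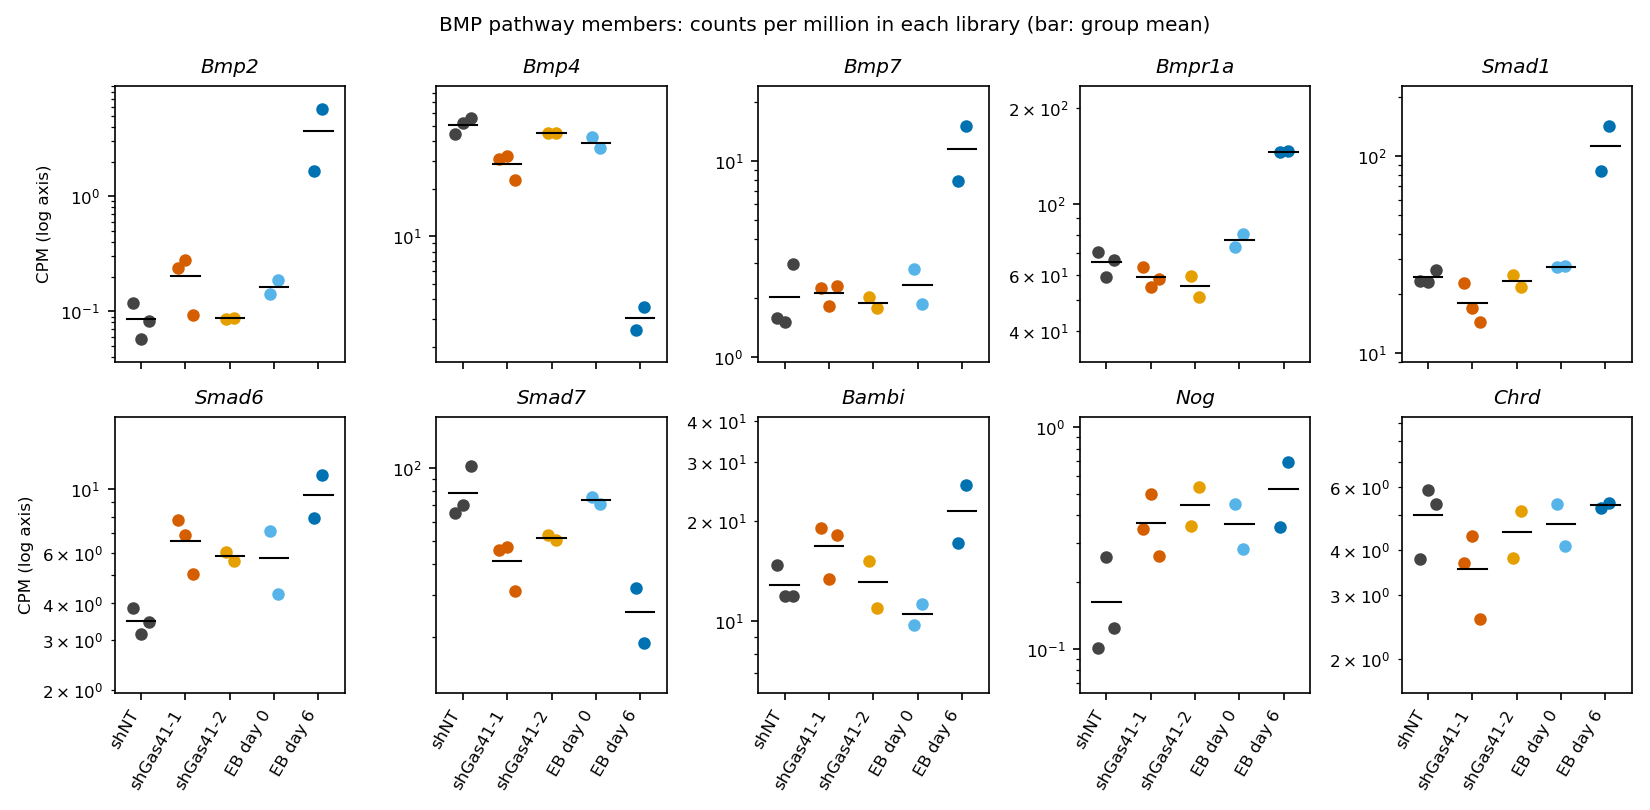
CPM of the 10 genes in each of the 12 libraries on a log axis whose range differs between panels, with points for libraries and bars for group means. *Bmp4* lay between 22.6 and 55.5 CPM in all 10 undifferentiated or KD libraries and at 2.56 and 3.56 CPM at EB day 6, while *Smad6* was lowest in the 3 shNT libraries.

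KD of *Gas41* changed 3 of the 9 tested genes with shGas41-1 and 1 of 9 with shGas41-2. With shGas41-1, *Smad6* rose and *Bmp4* and *Smad7* fell, each by less than 2-fold, among the 9 genes that passed the filter on low counts (edgeR's quasi-likelihood test, Benjamini-Hochberg FDR of 0.05 or less over 18274 genes). The 1 gene that rose stands beside 10.8% of all tested genes called higher, and the 2 that fell beside 7.73% called lower. None of the 9 passed the study's rule of FDR 0.05 with a 2-fold change, which 10.3% of genes passed, and their median log2 fold change was −0.08 against 0.02 over all tested genes. With shGas41-2, *Smad6* rose and none of the 9 fell, beside 5.94% of 18405 genes called higher and 3.97% called lower. None of the 9 passed with a 2-fold change, which 4.82% of genes did, and the median was −0.01 for the 9 and for all genes. Both KDs were compared with the same shNT libraries, so their values are given side by side and their agreement was not tested. *Bmp2* was not tested in either KD comparison. *Nog*, included among the 9, passed the filter on low counts through the KD libraries, where it was higher.

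EB formation changed 8 of the 10 genes. *Bmp2*, *Bmp7*, *Bmpr1a*, *Smad1*, *Smad6* and *Bambi* rose and *Bmp4* and *Smad7* fell at day 6, while *Nog* and *Chrd* were not called. The 6 that rose stand beside 30.5% of 18287 tested genes called higher and the 2 that fell beside 28.4% called lower. Of the 8, all but *Smad6* changed by at least 2-fold, as did 31.3% of all tested genes, and the median log2 fold change was 0.91 for the 10 genes and 0.00 over all. *Bmp2*, included in these counts, passed the filter on low counts through the day 6 libraries, where it was high. Calls were lost with 1 control library left out: without EB day 0 replicate 3, *Bmp4* and *Bmpr1a* alone were called, and calls over all genes went from 10779 to 5066. The log2 fold changes of the other 6 kept their direction, at 4.79 for *Bmp2*, 2.13 for *Bmp7*, 2.14 for *Smad1*, −1.49 for *Smad7*, 1.22 for *Bambi* and 0.50 for *Smad6*. Their FDR then lay between 0.0567 and 0.275.

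**Figure D2:**
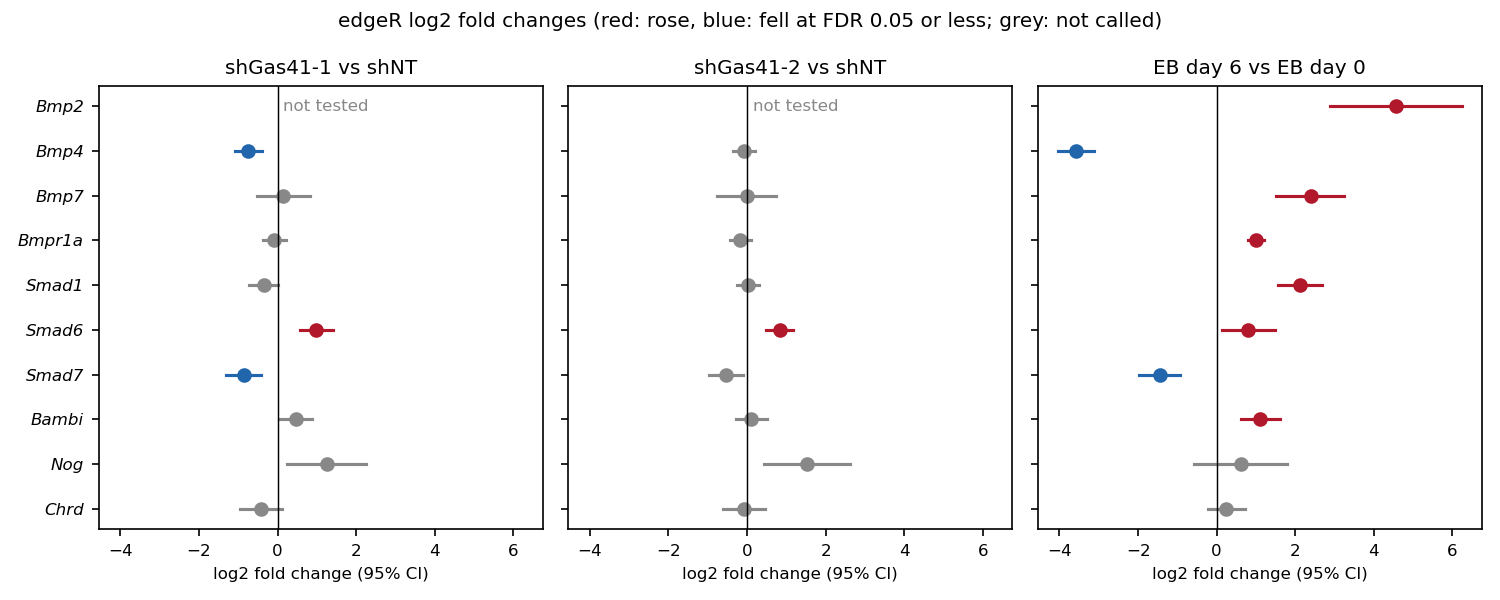
Log2 fold changes from edgeR with 95% confidence intervals for the 10 genes in the KD comparisons (shGas41-1, then shGas41-2) and in EBs, coloured by direction where FDR was 0.05 or less. *Smad6* was higher in all 3 panels, and *Bmp4* ranged from −0.09 with shGas41-2 to −3.58 at EB day 6.

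Of the ligands, *Bmp4*, the main BMP of the early embryo, stood at 44.3, 51.8 and 55.5 CPM in the shNT libraries and at 30.9, 32.2 and 22.6 CPM in those of shGas41-1. The groups did not overlap, although the share of all genes separated like this was not counted. The log2 fold change was −0.75 (SE 0.15, FDR = 0.0122, edgeR). Its level was 44.8 and 45.1 CPM in shGas41-2 1 and 2, within the shNT range (log2 fold change −0.09, 95% CI −0.37 to 0.19). The shGas41-1 level was the lowest of any group but EB day 6, and its call was lost without shNT 2 (log2 fold change −0.73, FDR = 0.058) and without shNT 3 (−0.69, FDR = 0.0508). In those settings calls over all genes fell from 3383 to 1441 and 1620. EB day 0 libraries held 42 and 35.9 CPM and EB day 6 libraries 2.56 and 3.56 CPM. *Bmp4* thus fell to 0.0836 times its day 0 level as EBs formed (log2 fold change −3.58, SE 0.19, FDR = 2.69e-05, edgeR), and this call held with each library left out in turn. An antisense neighbour, *Gm15217*, shares 89 of the exon bases of *Bmp4* (4%), and the library kit did not mark strand, so reads there cannot be assigned to either gene.

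*Bmp7* and *Bmp2*, ligands that act in many later organs and in the heart, took the opposite course in EBs. *Bmp7* was measured at between 1.5 and 2.97 CPM in every shNT and KD library, at 2.82 and 1.85 CPM at EB day 0 and at 7.95 and 15.1 CPM at EB day 6. It rose 5.23-fold in EBs (log2 fold change 2.39, SE 0.36, FDR = 0.00169, edgeR) and was not called in either KD, with 95% CIs of −0.51 to 0.82 and −0.76 to 0.73. *Bmp2* had 10 and 12 counts (0.14 and 0.188 CPM) at EB day 0 and 113 and 390 counts (1.67 and 5.67 CPM) at day 6, a log2 fold change of 4.57 (SE 0.70, FDR = 0.00177, edgeR). *Bmp2* passed the filter on low counts through the EB day 6 libraries, where it was high. The 2 EB libraries differed widely in *Bmp2*, and replicate 3 was the higher one for both ligands. In the KD libraries *Bmp2* had 7, 4 and 6 counts in shNT, 18, 22 and 6 in shGas41-1 and 7 and 7 in shGas41-2. These counts were too few for the filter, and the shGas41-1 libraries overlapped shNT.

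Among these 3 ligands, *Bmp4* had the largest share of transcripts in mESCs and *Bmp7* in EBs. As a share of the summed CPM per kb of the 3 ligands, *Bmp4* made up between 94.5% and 98.4% in each of the 10 libraries of shNT, the KDs and EB day 0. At EB day 6 it made up 32% and 23.1%, *Bmp7* 54.9% and 54%, and *Bmp2* 13.1% and 23%. The sum of the 3 ligands was 19.6 and 16.6 CPM per kb at EB day 0 and 3.6 and 6.95 at day 6. It was 20.3, 23.7 and 25.7 CPM per kb in shNT, 14.5, 15 and 10.8 in shGas41-1 and 20.7 in both shGas41-2 libraries. These shares and sums are descriptions of transcript levels and were not tested.

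**Figure D3:**
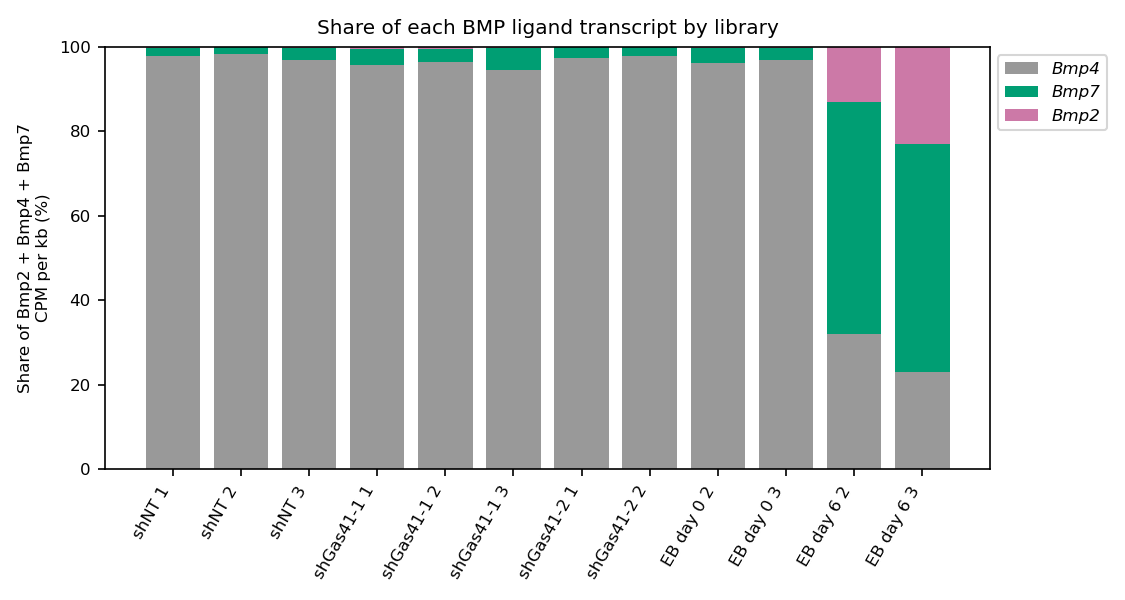
Share of *Bmp4*, *Bmp7* and *Bmp2* in the summed CPM per kb of the 3 ligands, as 1 stacked bar for each of the 12 libraries. *Bmp4* took at least 94.5% in every library but those of EB day 6, where *Bmp7* took 54.9% and 54%.

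On the receiving side, *Bmpr1a*, a type I BMP receptor needed for gastrulation, was measured at 73.2 and 80.5 CPM at EB day 0 and at 145.2 and 146.0 CPM at day 6. It rose 2.01-fold (log2 fold change 1.01, SE 0.08, FDR = 0.000135, edgeR), with replicates that lay close together. In shNT it stood at 70.8, 59.1 and 66.6 CPM, and the KD libraries at between 51 and 63.3 CPM overlapped that range. Its 95% CI was −0.37 to 0.22 with shGas41-1 and −0.44 to 0.10 with shGas41-2. *Gm17110*, on the other strand, shares 4.57% of its exon bases. *Smad1*, which carries the signal to the nucleus, was measured at 27.3 and 27.6 CPM at EB day 0 and at 84.2 and 141.3 CPM at day 6, a 4.36-fold rise (log2 fold change 2.13, SE 0.24, FDR = 0.000456, edgeR). It stood at 23.2, 23 and 26.5 CPM in shNT, at 22.6, 17 and 14.4 CPM in shGas41-1 and at 25 and 21.6 CPM in shGas41-2. All 3 shGas41-1 libraries lay below shNT, but the log2 fold change of −0.35 did not pass (SE 0.16, FDR = 0.16, edgeR), and with shGas41-2 it was 0.03 (95% CI −0.25 to 0.30).

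The inhibitory Smads had log2 fold changes of opposite sign in each of the 3 comparisons, higher for *Smad6* and lower for *Smad7*. *Smad6*, which blocks BMP signalling selectively, was measured at 3.85, 3.14 and 3.44 CPM in shNT, 7.81, 6.88 and 5.04 CPM in shGas41-1 and 6.02 and 5.63 CPM in shGas41-2. Neither KD overlapped shNT, but both were set against the same 3 shNT libraries, and the share of all genes separated like this was not counted. The rise was 1.99-fold with shGas41-1 (log2 fold change 0.99, SE 0.19, FDR = 0.00947, edgeR) and 1.77-fold with shGas41-2 (log2 fold change 0.83, SE 0.15, FDR = 0.0179, edgeR). Without shNT 2 the FDR was 0.054 with shGas41-1 and 0.0847 with shGas41-2, and with either shGas41-2 library left out it was 0.127 or 0.117. Control cells of the EB set held *Smad6* at 7.13 and 4.33 CPM, overlapping the KD libraries and above every shNT library. EB day 6 libraries held 7.9 and 11.1 CPM, and the rise there was 1.75-fold (log2 fold change 0.81, SE 0.28, FDR = 0.044, edgeR). That call was lost when libraries were scaled by their totals alone (FDR = 0.0624) and without EB day 0 replicate 3, where the log2 fold change was 0.50 (FDR = 0.275).

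*Smad7*, which blocks both BMP and TGF-β receptors, was measured at 65.3, 70.1 and 101.7 CPM in shNT and at 45.9, 47.1 and 31.1 CPM in shGas41-1. It fell to 0.55 times the shNT level (log2 fold change −0.86, SE 0.20, FDR = 0.0204, edgeR), with no overlap between the groups. The share of all genes without such overlap was not counted. The call was lost without shGas41-1 1 (FDR = 0.0604), shNT 2 (0.0516) or shNT 3 (0.0655). shGas41-2 libraries held 52.9 and 50.2 CPM, also below every shNT library, but did not pass (log2 fold change −0.54, SE 0.19, FDR = 0.108, edgeR). DESeq2 called *Smad7* with shGas41-2 as well (adjusted p = 0.0425), as did edgeR without shNT 1 (FDR = 0.0089). At EB day 0 it was 75.9 and 71.1 CPM and at day 6 31.9 and 18.9 CPM, a fall to 0.366 times (log2 fold change −1.45, SE 0.22, FDR = 0.00166, edgeR). The ratio of *Smad7* to *Smad6* per kb was 11.8, 15.5 and 20.5 in shNT, 4.07, 4.74 and 4.28 in shGas41-1 and 6.1 and 6.19 in shGas41-2. It was 7.39 and 11.4 at EB day 0 and 2.8 and 1.19 at EB day 6, so that every KD library lay below every control library and EBs lay lowest. The ratio joins 2 genes whose changes had opposite signs in these same libraries, so it adds nothing independent of them, and it was not tested.

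*Bambi*, a receptor-like protein without a kinase domain that sits in receptor complexes as a decoy, was measured at 14.8, 11.9 and 11.9 CPM in shNT, 19.1, 13.4 and 18.1 CPM in shGas41-1 and 15.2 and 11 CPM in shGas41-2. It did not pass in either KD (log2 fold change 0.47, FDR = 0.105, and 0.11, FDR = 0.722, edgeR), although without shGas41-1 2 it was called (0.64, FDR = 0.0337). In EBs it went from 9.78 and 11.3 CPM to 17.2 and 25.7 CPM, a 2.16-fold rise (log2 fold change 1.11, SE 0.21, FDR = 0.00435, edgeR). Without EB day 0 replicate 2 the FDR was 0.0564. A pseudogene copy on chromosome 2, *Bambi-ps1*, had between 14 and 85 counts where *Bambi* had between 698 and 1764, and reads of the copies can be confused. *Bambi-ps1* was called higher with shGas41-1 (log2 fold change 1.19, SE 0.35, FDR = 0.0485, edgeR) and not in EBs (0.05, FDR = 0.93).

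Neither secreted antagonist was called in any comparison. *Nog*, which encodes Noggin, had 6, 18 and 9 counts in shNT (0.101, 0.26 and 0.124 CPM), 26, 39 and 17 in shGas41-1 and 29 and 43 in shGas41-2. The log2 fold changes of 1.25 (SE 0.44, FDR = 0.082) and 1.52 (SE 0.48, FDR = 0.0821) did not pass edgeR's test, and shGas41-1 3, at 0.263 CPM, lay beside the highest shNT library. *Nog* passed the filter on low counts through the KD libraries, where it was higher, since shNT 1 and 3 lay under the minimum count of 10. At EB day 0 *Nog* had 32 and 18 counts, in the range of the KD libraries, and at day 6 it had 24 and 48 (log2 fold change 0.61, 95% CI −0.58 to 1.80). At this depth a change of *Nog* as large as those of the KDs lay inside the interval for EBs. *Chrd*, which encodes Chordin, was measured at 3.78, 5.86 and 5.37 CPM in shNT, 3.69, 4.39 and 2.58 CPM in shGas41-1 and 3.81 and 5.15 CPM in shGas41-2. At EB day 0 it was 5.37 and 4.11 CPM and at day 6 5.25 and 5.41 CPM. The groups overlapped in every comparison, and the 95% CI of the log2 fold change was −0.95 to 0.11, −0.61 to 0.46 and −0.21 to 0.72 in turn. *Chrd* shares 2.64% of its exon bases with *Thpo* on the other strand.

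Tests of the differences between responses bear on which of these genes set the comparisons apart. Between the shRNAs, fitted over all 8 libraries, none of the 10 genes was called, nor was any other gene (0% of 19146), although 1348 genes had an unadjusted p under 0.05 by edgeR and DESeq2 called 171. *Bmp2* entered this fit only through shGas41-1 1 and 2, where it was high (0.24 and 0.281 CPM), so its result there carries no weight. Among those 1348 were *Bmp4*, higher with shGas41-2 by 0.66 (SE 0.15, unadjusted p = 0.00157, FDR = 0.292, edgeR), and *Smad1*, higher by 0.38 (FDR = 0.709). DESeq2 called *Bmp4* (adjusted p = 0.0242), so whether the shRNAs differed in *Bmp4* depended on the tool. For *Smad6* and *Smad7* the 95% CIs of the difference were −0.58 to 0.24 and −0.13 to 0.79.

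The response to EB formation differed from that to shGas41-1 in 5 of the 10 genes, beside 45.1% of 19613 genes. On the log2 scale, EBs were above shGas41-1 in their change by 2.28 for *Bmp7* (SE 0.49, FDR = 0.0024), 1.12 for *Bmpr1a* (SE 0.17, FDR = 0.000226) and 2.52 for *Smad1* (SE 0.30, FDR = 4.45e-05), all from edgeR. The change of *Bmp4* was lower in EBs by a log2 difference of −2.79 (SE 0.25, FDR = 5.22e-06, edgeR). *Bmp2* was the fifth (3.27, SE 0.91, FDR = 0.0114, edgeR), but it entered this fit through its counts at EB day 6, where it was high, with too few counts in the KD libraries to be tested there. These 5 calls held in every alternative run for this comparison. The differences for *Smad6* (−0.14, 95% CI −0.86 to 0.58), *Smad7* (−0.55, −1.26 to 0.17), *Bambi* (0.68, 0.00 to 1.36), *Nog* (−0.60, −2.08 to 0.89) and *Chrd* (0.72, −0.04 to 1.47) did not pass. Without EB day 6 replicate 2, *Smad7* (−0.95, FDR = 0.0433) and *Bambi* (0.96, FDR = 0.0327) were called as well by edgeR. The 5 of 10 genes called was a share near that of all genes.

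EB day 0 and shNT cells were both undifferentiated and carried the control vector, and none of the 10 genes was called between them, beside 0.387% of 19613 genes. *Bmp2* entered this fit mainly through groups outside this comparison, where it was higher. At an unadjusted p under 0.05, *Bmp4* was lower (log2 fold change −0.40, FDR = 0.253, edgeR), and *Smad6* (0.70, FDR = 0.164) and *Nog* (1.14, FDR = 0.265) were higher at EB day 0. DESeq2 called 1111 genes and none of the 10. The set of libraries and the culture cannot be told apart here. For *Smad6* and *Nog*, the spread between these 2 control groups (0.70 and 1.14, neither called) was close to the difference between KD and shNT (0.83 to 0.99 for *Smad6* and 1.25 to 1.52 for *Nog*). The KD values of *Nog* come from a gene that passed the filter through the KD libraries.

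Markers of differentiated cells also changed as EBs formed. At EB day 6, 6 of 6 mesoderm markers (*T*, *Mesp1*, *Mixl1*, *Kdr*, *Hand1* and *Tbx6*) rose, and their summed level was 741.1 and 1211.1 CPM against 3.77 to 5.34 CPM at EB day 0. Of 6 endoderm markers 4 rose, with sums of 58.9 and 148.0 CPM against 2.2 to 3.3 CPM, and *Afp* was at 0 in both groups. Mesoderm, endoderm and trophoblast sums were higher in EB day 6 replicate 3 than in replicate 2, while neuroectoderm and fibroblast sums lay close. Replicate 3 also held more *Bmp2*, *Bmp4*, *Bmp7*, *Smad1*, *Smad6*, *Bambi* and *Nog* and less *Smad7*, and *Bmpr1a* and *Chrd* lay close in these 2 libraries. Of 4 neuroectoderm markers measured 2 rose (172.9 to 176.7 CPM against 12.5 to 13.4 CPM, with *Neurog2* at 0 at day 6). Most of that sum was *Nes*, at a mean of 169.8 CPM at day 6, while *Pax6* had means of 2.58 CPM at day 0 and 2.49 CPM at day 6. Of 5 trophoblast markers 3 rose (42.4 to 60.8 CPM against 19.5 to 31.6 CPM, *Hand1* being on this list too) and of 5 fibroblast markers 2 rose (9.84 to 10.3 CPM against 6.17 to 9.05 CPM). *Thy1*, the largest part of the fibroblast sum, had means of 6.76 CPM at day 0 and 5.2 CPM at day 6. *Col1a1* (0.655 and 2.57 CPM) and *Col1a2* (0.188 and 2.23 CPM) had higher means at day 6. All 6 pluripotency markers fell. Over all tested genes, 30.5% were called higher and 28.4% lower in EBs, so the smaller of these counts lay near the share of all genes. The part of these cell types in the changes of the 10 genes was not tested.

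With shGas41-1, 2 of 6 pluripotency markers and 1 of 6 mesoderm markers fell, 1 of 4 neuroectoderm markers rose (summed level 17.4 to 22.8 CPM against 10.9 to 11.5 CPM in shNT) and 1 of 6 endoderm markers rose (2.47 to 5.16 CPM against 1.74 to 2.14 CPM). Within the neuroectoderm sum, *Pax6* had means of 11.2 CPM with shGas41-1 and 2.22 CPM in shNT, and *Nes* 8.59 and 8.87 CPM. Of 5 trophoblast markers 2 rose and 1 fell (22.1 to 27.3 CPM against 30.2 to 43.4 CPM), and of 5 fibroblast markers 1 fell (4.16 to 5.98 CPM against 7.92 to 13.9 CPM). Most of the fibroblast sum was *Thy1*, at a mean of 9.92 CPM in shNT and 4.37 CPM in shGas41-1. Most of the trophoblast sum was *Tfap2c*, at a mean of 34 CPM in shNT and 20.8 CPM in shGas41-1. The other trophoblast markers had higher means with shGas41-1, among them *Gata3* (2.31 against 0.123 CPM) and *Cdx2* (1.18 against 0.223 CPM). With shGas41-2, 1 pluripotency marker fell and 1 trophoblast marker rose, and no other marker was called. Over all tested genes, 10.8% were called higher and 7.73% lower with shGas41-1, and 5.94% and 3.97% with shGas41-2. Lists of 4 to 6 genes are too short to tell a single call from these shares. The mesoderm sum stayed between 3.23 and 6.75 CPM in shNT and both KDs. *Ttr* and *Postn* were at 0 in all libraries of these 3 groups. The part of these markers in the changes of *Smad6*, *Smad7* and *Bmp4* was not tested. Leaving out shGas41-1 3, the library that stood apart, kept the calls of all 3 genes.

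Among the other genes of the pathway, 48 were listed by role. With shGas41-1, 34 were tested, 10 rose and 3 fell, beside 10.8% of all tested genes called higher and 7.73% called lower, with a median log2 fold change of 0.38 against 0.02 over all genes. Targets made up 6 of the 10 rises, antagonists 3 and ligands 1. The lists were chosen with earlier results known, and the study had reported *Id2* and *Msx1* as higher after KD. These counts are therefore no independent result about the pathway. All 6 targets rose: *Id2*, which blocks basic helix-loop-helix factors, by 3.26 (SE 0.21, FDR = 0.000707), *Msx1*, a homeobox gene, by 1.99 (SE 0.41, FDR = 0.013), *Msx2* by 1.49, *Id3* by 1.20, *Id1* by 0.96 and *Id4* by 0.83 on the log2 scale (edgeR). *Id2* went from a mean of 5.68 ± 1.38 CPM (SD, n = 3) in shNT to 51.7 ± 4.09 CPM (SD, n = 3). *Bmper*, a secreted BMP modulator, had 1 to 3 counts in shNT libraries and 11 to 12 in shGas41-1 libraries, and was called higher (edgeR FDR = 0.0141). It passed the filter on low counts through the shGas41-1 libraries, where it was high, and with 4 to 5 counts in shGas41-2 libraries it was not tested there. *Hfe2* and *Acvrl1*, a BMP co-receptor and a type I receptor of endothelial cells, fell by 1.04 (SE 0.20, FDR = 0.0097) and by 1.01 (SE 0.26, FDR = 0.0313) on the log2 scale (edgeR), and no other receptor, and none of the transducers *Smad4*, *Smad5* and *Smad9*, was called.

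With shGas41-2, 34 of the 48 were tested, 2 rose and 1 fell, beside 5.94% and 3.97% of all tested genes, with a median of 0.35 against −0.01 over all genes. *Id2* rose by 1.99 (SE 0.20, FDR = 0.00184) and *Id3* by 0.78 (SE 0.12, FDR = 0.0105), and *Hfe2* fell by 1.28 on the log2 scale (SE 0.31, FDR = 0.041, edgeR). The other 4 targets did not pass, although their median with *Id2* and *Id3* was 0.78. *Smad6* was the member called with each shRNA, beside these 2 targets.

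At EB day 6, 38 of the 48 were tested, 27 rose and 1 fell, beside 30.5% and 28.4% of all tested genes, with a median of 1.30 against 0.00 over all genes. Receptors accounted for 7 of the rises, secreted antagonists for 7 and targets for 4, and *Smad4*, *Smad5* and *Smad9* all rose. *Cer1*, a secreted inhibitor of BMP and Nodal, had 2 to 3 counts in EB day 0 libraries and between 258 and 1153 at day 6. *Bmper* had 2 to 4 and between 266 and 1145 counts, and the ligand *Gdf6* 0 to 2 and between 93 and 243. *Cer1*, *Bmper*, *Gdf6*, *Smad9* and some others of the 27 passed the filter on low counts through the EB day 6 libraries, where they were high. *Acvrl1* was the gene that fell (log2 fold change −1.75, SE 0.28, FDR = 0.00215, edgeR). *Id1* and *Id4* were the targets not called in EBs, at a mean of 70.5 ± 1.06 and 60.6 ± 20.4 CPM (SD, n = 2 each) for *Id1* and 2.36 ± 0.168 and 1.72 ± 0.394 CPM (SD, n = 2 each) for *Id4* at day 0 and day 6. While *Nog* and *Chrd* were not called, other extracellular inhibitors of the list thus rose, some of them, such as *Cer1* and *Bmper*, tested through their day 6 counts.

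**Figure D4:**
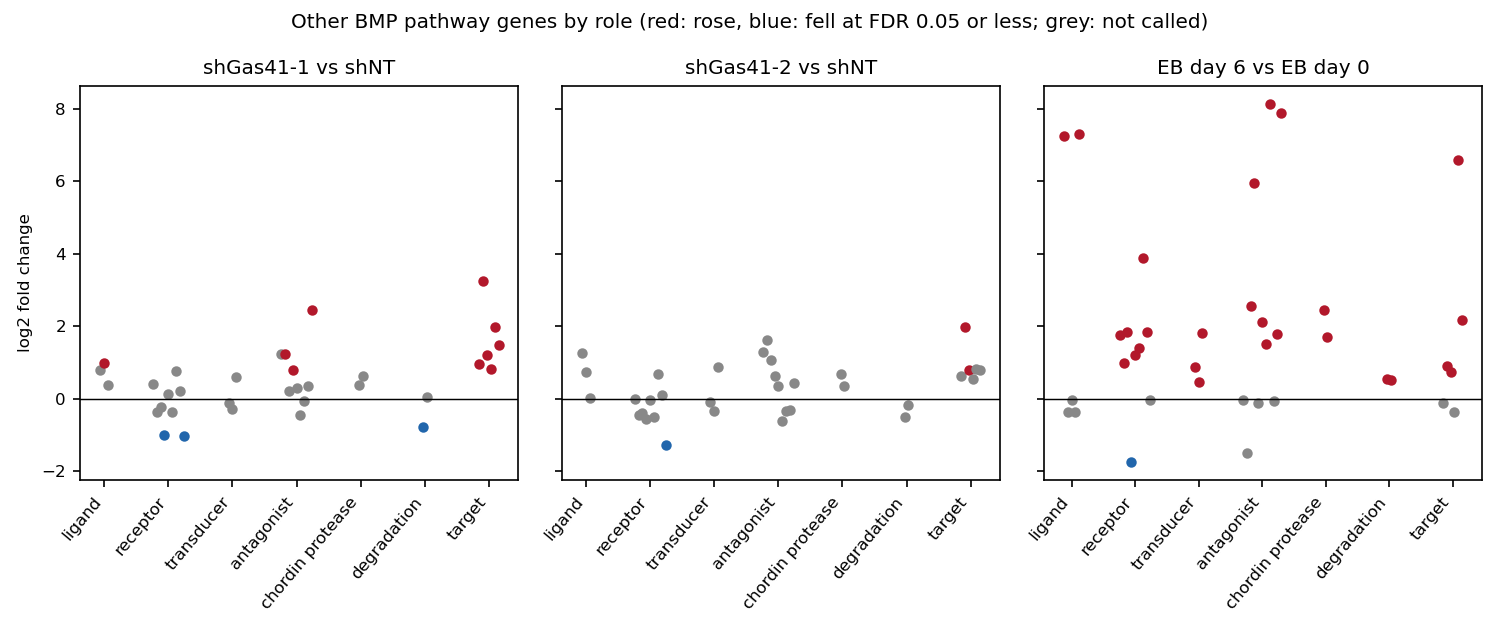
Log2 fold changes from edgeR for the other tested BMP pathway genes, grouped by role, with 1 point for each gene and colour where FDR was 0.05 or less. All 6 targets rose with shGas41-1 and 2 with shGas41-2, and 27 of 38 tested genes rose at EB day 6.

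The genes nearest in pattern to each member were found from the root mean square difference of log2(CPM + 1) over the 5 group means, each gene centred on its own mean, among 11968 genes with at least 1 CPM. *Bmp4* was nearest to *Tfeb* and *Gpr83* (0.08 each), *Smad6* to *Pak3* (0.07) and *Pgm2l1* (0.10), and *Smad7* to *Xlr4a* (0.06) and *Rasip1* (0.07). *Smad1* was nearest to *Tapbp* (0.09) and *Fam49a* (0.10), *Bmpr1a* to *Sh2d3c* (0.03) and *Tcp11l1* (0.04), *Bmp7* to *Olfm1* (0.03) and *Anks6* (0.04), *Bambi* to *Crot* and *Pgbd5* (0.06 each), and *Chrd* to *Ncbp1* (0.01) and *Fyn* (0.02). None of these was another gene of the pathway lists. *Bmp2* and *Nog* averaged under 1 CPM and were not matched.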

How the data were processed

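RNA-seq libraries of J1 mESCs were made by the authors with a TruSeq RNA kit that does not mark strand, aligned to the genome (mm9) and transcriptome of the mouse by TopHat2 (2.0.10 per the submitters' processing notes), and counted per gene with htseq-count. The authors deposited these counts as whole numbers, not normalized. The tables also hold log2 fold changes, p-values and FDR from the authors' own edgeR comparisons, which were not used. ChIP-seq was not analysed here. Labels call the control shCon, read here as shNT, and the columns named ESC in the EB table were read as EB day 0, the control of that comparison. The shNT counts are the same in both KD tables.

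Counts were analysed in R 4.3.3 with edgeR 4.0.16 (filterByExpr with a minimum count of 10 and a total of 15, TMM, glmQLFit, then glmQLFTest), with p-values adjusted by Benjamini-Hochberg over all genes tested in a comparison. Fits used the libraries of the comparison, except the comparison between the shRNAs (8 libraries) and those across the 3 tables (12 libraries). Standard errors were the log2 fold change divided by the square root of F, and intervals are 95% intervals. CPM are counts scaled to a common total over the genes of a library, and CPM per kb divide by the exon length in the GENCODE annotation of mm9. Floors of 3 counts cover counting error only, since reads are not independent molecules. The fits were tested on simulated data. Alternatives were RLE scaling, library totals alone, no filter, DESeq2 1.42.0, a 2-fold rule, the replicate number as a block, and each library left out. The members and all lists were chosen with earlier results of these data known. Genes named are the 10 members, *Yeats4*, up to 3 other pathway genes per direction and comparison with the largest changes past FDR 0.05 and 2-fold, the 2 nearest in pattern to each member, and overlapping or copied genes. The remaining *Id* and *Msx* targets and the transducers were named after their values were seen. *Bmp10* and *Sox1*, on the lists, were not analysed here.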

Additional observations from a re-analysis of the deposited data

How the results depend on the processing

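Counts of called members were recomputed under each alternative. With shGas41-1 the 3 members called became 0 under the 2-fold rule and 1 (*Smad6*) with the replicate block, and between 0 and 4 with a library left out (0 without shNT 2, 1 without shNT 3). With shGas41-2 the 1 member became 2 with DESeq2, 0 under the 2-fold rule and 4 with the replicate block (*Bmpr1a*, *Nog*, *Smad6* and *Smad7*, of 7166 genes called against 1824 without it), and between 0 and 2 with a library left out (0 without either shGas41-2 library or shNT 2, 2 without shNT 1). At EB day 6 the 8 members became 7 with library totals alone, under the 2-fold rule and with the block (*Smad6* lost each time, with the block at 0.83 and an edgeR FDR of 0.0555), and between 2 and 8 with a library left out. Between the shRNAs DESeq2 called 1 member in place of 0. The EB day 0 and shNT comparison gave 0 members and the comparison of responses between 5 and 7 in all alternatives, the block giving 6, with *Bambi* added (FDR = 0.0283, edgeR). Leaving libraries out of these last 3 comparisons, and the block between EB day 0 and shNT, were chosen after seeing the data. The replicate numbers were not shown to pair samples: deviations of same-numbered libraries correlated at 0.01, 0.14 and −0.39 with shGas41-1, 0.34 and 0.24 with shGas41-2 and 0.05 and 0.05 in EBs.

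Single log2 fold changes kept direction and side of the threshold in 650 cases, lost the call in 25, gained one in 10 and changed sign in 18, none of them a called value. Library totals alone turned *Smad1* with shGas41-2 to −0.05, and the replicate block turned *Bmp7* with shGas41-2 to 0.38 and between the shRNAs to 0.04. With 1 library left out, values that changed sign ranged, with shGas41-1, from −0.02 to 0.53 for *Bmp7*. With shGas41-2 the ranges were −0.19 to 0.39 for *Bmp7*, −0.07 to 0.11 for *Smad1*, −0.13 to 0.31 for *Bambi* and −0.33 to 0.13 for *Chrd*. Between the shRNAs *Nog* ranged from −0.08 to 0.56, and between responses *Smad6* from −0.44 to 0.26. Between EB day 0 and shNT the ranges were −0.14 to 0.59 for *Bmp7*, −0.25 to 0.10 for *Smad7* and −0.30 to 0.07 for *Chrd*. The cause was not tested.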
